A study of Caenorhabditis elegans with 12 samples.

Results

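The 10 genes described here encode basic leucine zipper (bZIP) transcription factors of Caenorhabditis elegans: zip-1, zip-2, zip-3, zip-4, zip-5, zip-7, zip-8, zip-10, zip-11 and skn-1. They were taken by name from the 20362 genes of the count files, and the group was chosen by the CPM of zip-8, which was already known to be far lower after the 190-cell stage. The change of each gene from the 190-cell stage to the later stages was therefore part of the choice and is given as a description, with no test. A later test, of whether the genotype difference changed between stages, draws on the same changes. Its p-values are listed without being taken as support.

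mRNA of whole embryos was measured by QuantSeq, which reads the 3′ end of polyadenylated transcripts, to ask which mRNAs differ when the miR-51 microRNA family is lost. The 12 libraries hold 6 groups of 2, with 50 embryos in each library, and cover miR-51 family null embryos (strain MLC1800, called null below) and wild-type embryos (N2), each sampled as 190-cell, bean and 2-fold embryos. Null embryos carry the deletions nDf67 and n4100 on chromosome IV and nDf58 on chromosome X. The strain is kept with lucEx1057, an extrachromosomal array that carries the miR-54 cluster of the family and the markers ttx-3::gfp and mir-35p::gfp, and how embryos without the array were picked was not analysed here. N2 embryos carry none of these alleles. Both strains were grown at 20 °C, with 1-day-old mothers, and embryos isolated early in cleavage developed outside the mother in M9. All libraries share 1 batch label. The study describes the 2 libraries of each group as independent duplicates. The labels do not say whether they came from separate cultures, so the p-values measure the spread between libraries, part of which may be technical.

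bZIP factors bind DNA as dimers through a basic region that is continued by a leucine zipper, and which partner is present sets which sites they bind. In the nematode, skn-1 is best known as the maternal factor that specifies the endomesoderm lineage and, later in life, as an activator of detoxification genes. zip-1 and zip-2 take part in responses to intracellular pathogens and to blocked translation, zip-3 restrains the mitochondrial stress factor ATFS-1, and zip-10 acts in a death response after cold shock.

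Of the libraries, null 190-cell replicate 1 stands apart, with 11081 reads assigned to genes and 3231 genes detected, against 887059 to 9558104 reads and 7287 to 11531 genes in the other 11. Its TMM scaling factor was 2.2177, so that 1 read there counted as 40.75 CPM (read count per 1e+06 reads of the TMM-scaled library), and each null 190-cell mean and difference below rests on it. Reads per captured molecule were estimated in each library from genes with low counts, at 1 to 3 CPM on average in the rest. Their mean count and the share of them without a read gave 3.68 to 56.8 in the other 11 libraries. Some levels are therefore also given in estimated molecules. A gene that is truly absent from a library raises the estimate. Epidermal marker genes summed to 81.5 and 58.98 CPM in null and 32.95 and 43.55 CPM in N2 libraries at the 190-cell stage, to 2663 and 2928 CPM in null and 2004 and 2445 CPM in N2 libraries at the bean stage, and to 7419 and 8197 CPM in null and 4855 and 7047 CPM in N2 libraries at the 2-fold stage, in the order of the stage labels. Muscle and gut markers followed the labels less closely before the 2-fold stage. Muscle genes summed to 248.5 and 30.43 CPM in N2 190-cell and 126.2 and 189.8 CPM in N2 bean libraries. In null libraries the muscle sums were 40.75 and 14.04, then 322.1 and 187.8 CPM. Gut genes summed to 217.5 and 257.1, then 159.3 and 164.4 CPM in N2, and 285.2 and 163.5, then 202.8 and 127.9 CPM in null. Both lists were highest at the 2-fold stage. The 6 vitellogenin genes, yolk genes of the adult intestine, summed to 0 to 40.75 CPM in null libraries and 185.3 to 4278 CPM in N2 libraries. A list of 8 early-embryo genes summed to 31.75 to 942.5 CPM in null libraries and 596.4 to 2646 CPM in N2 libraries, and in N2 it did not follow stage, with 1322 CPM in 190-cell replicate 2 and 2120 CPM in 2-fold replicate 2.

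Neither zip-8 nor zip-2 had an overlapping protein-coding gene with reads. In the WBcel235 annotation, zip-8 lies on chromosome III at 6478955 to 6481243 on the plus strand, and it overlaps no other protein-coding gene. zip-2 lies on chromosome III at 832982 to 835814 on the plus strand, and its 3′ end overlaps dos-3 on the opposite strand, which had 0 reads in every library. skn-1, on chromosome IV at 5651039 to 5660384 on the minus strand, overlaps csn-5, which had 27 to 216 CPM. zip-1 overlaps pph-4.1 and zip-10 overlaps skp-1, each with reads in all 12 libraries. The strand setting of the counting was not given. For skn-1, zip-1 and zip-10 it is thus not known whether reads within the shared bases were assigned by strand or left out. Reads at a place shared by more than 1 gene were counted for none and made up 0.0472% to 0.0882% of a library's total. Reads that aligned to several places in the genome, also left out of the counts, made up 39.3% to 63.5%.

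zip-8 was among the most abundant mRNAs at the 190-cell stage and far less abundant afterwards. At the 190-cell stage it had 448.2 and 1727 CPM in null embryos, against 1521 and 2504 CPM in N2 embryos. Only 0.514% of the 12062 tested genes had a higher mean in null embryos at that stage, and 0.282% in N2 embryos. The bean stage gave 251.9 and 352.8 CPM in null embryos, against 136.0 and 103.1 CPM in N2 embryos. In 2-fold embryos the values were 211.2 and 191.2 CPM in null, against 72.54 and 60.69 CPM in N2. The ranges of the genotypes overlapped at the 190-cell stage and were apart at the later stages, with both null libraries above both N2 libraries.

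The decline of the mean was larger in N2 than in null embryos. In null embryos mean zip-8 was 3.60-fold lower at the bean stage and 5.40-fold lower at the 2-fold stage than at the 190-cell stage. In N2 embryos it was 16.8-fold lower in bean and 30.2-fold lower in 2-fold embryos. With library totals in place of TMM the declines to the bean and the 2-fold stage were 5.38-fold and 8.88-fold in null and 18.1-fold and 35.8-fold in N2 embryos. From the bean to the 2-fold stage mean zip-8 was 1.5-fold lower in null and 1.79-fold lower in N2 embryos. In estimated molecules, zip-8 had 10.1 and 203 in null and 213 and 580 in N2 libraries at the 190-cell stage, and 23.3 and 25.1 in null and 12.8 and 13.6 in N2 libraries at the 2-fold stage. Without the shallow library the null 190-cell level is that of 1 library, 1727 CPM, which lies within the N2 range.

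**Figure D1:**
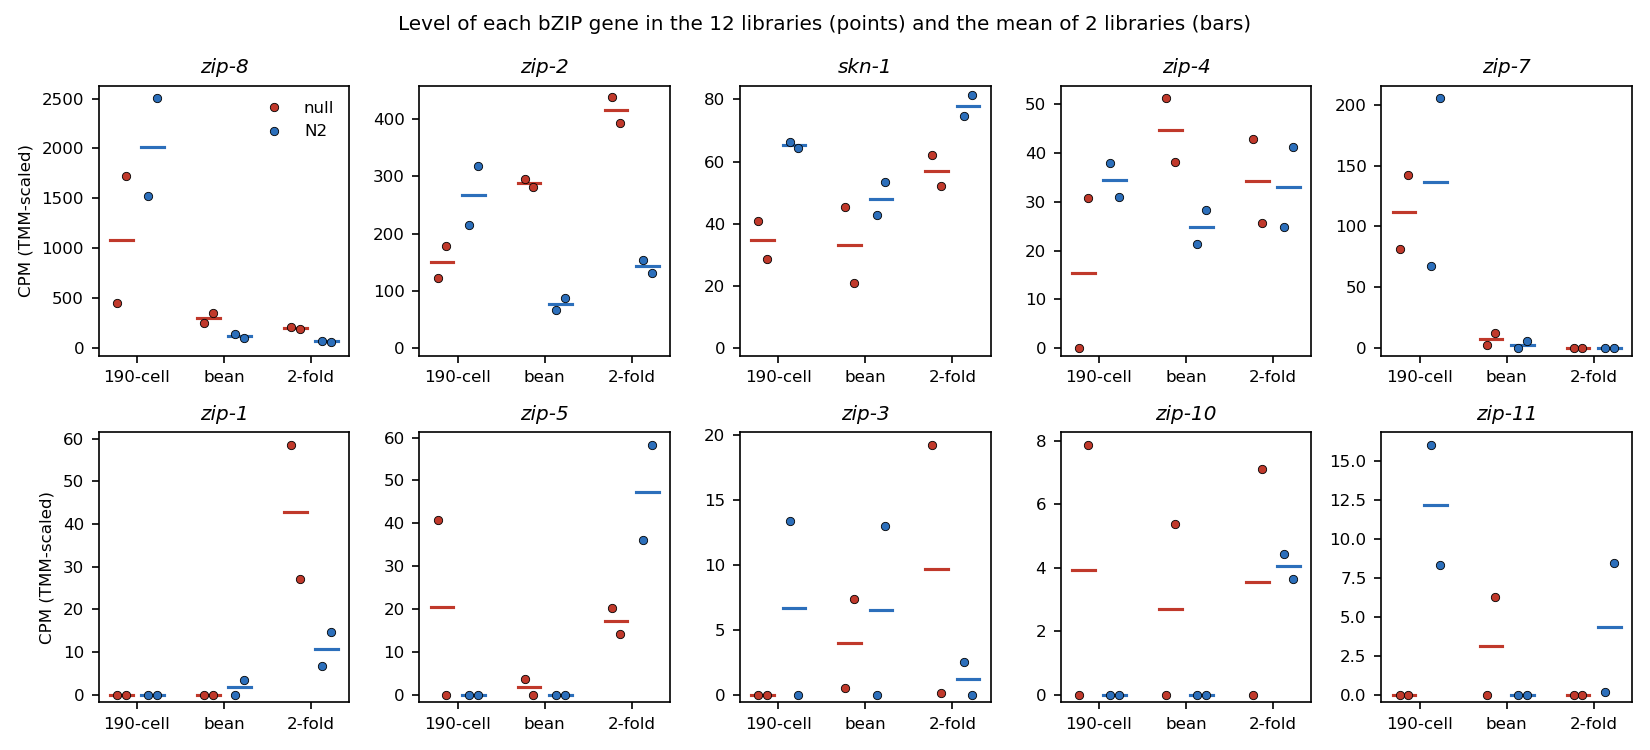
Level of each of the 10 bZIP genes in CPM (vertical axis, its own scale in each panel) by stage, with null libraries in red left of N2 libraries in blue and a bar at the mean of 2 libraries. zip-8 starts at 448.2 to 2504 CPM and lies between 60.69 and 211.2 CPM at the 2-fold stage, while the null libraries of zip-2 lie below N2 in 190-cell embryos and above N2 later.

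The comparison of null with N2 embryos asks whether any of the 10 genes depends on the miR-51 family. At the bean stage zip-8 was 1.34 higher in null embryos on the log2 scale (SE 0.44), with an unadjusted p of 0.005068 and an adjusted p of 0.3688 by edgeR's quasi-likelihood test. At the 2-fold stage the difference was 1.59 (SE 0.45), with an unadjusted p of 0.001392 and an adjusted p of 0.05789. At the 190-cell stage it was −0.78 (SE 0.44, adjusted p 0.8052), and with the shallow library as the sole null sample of that stage it was −1.82. None of these passed the threshold of 0.05. Under 20 alternatives, zip-8 passed the threshold at the 2-fold stage in 15, with log2 fold changes from 1.33 to 1.73, and at the bean stage in 1, with log2 fold changes from 1.04 to 1.63. The bean-stage pass came with null bean replicate 1 left out, at an adjusted p of 0.03408.

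Averaged over the stages, zip-8 was 0.71 higher in null embryos (SE 0.25, adjusted p 0.1125 by the edgeR test), a value that joins a lower 190-cell estimate with higher later ones. The average over the bean and 2-fold stages alone, added after the data were seen, was 1.47 with an adjusted p of 0.003829. An edgeR test of whether the genotype difference itself changed between stages gave an unadjusted p of 0.001171 and an adjusted p of 0.1307. It draws on the change of zip-8 from the 190-cell stage, which was part of the choice, so no conclusion is drawn from it. Under 19 alternatives it passed in 7, with adjusted p from 0.005002 (no filter) to 0.3807 (without the shallow library). That edgeR test called 0 of the 10 members, where 0.464% of the tested genes were called, with 3 at an unadjusted p under 0.05 and 1 called by DESeq2.

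zip-2, a bZIP factor that activates defence genes when translation is blocked, was the only member that the edgeR test as reported called in a comparison of genotypes, while DESeq2 called zip-8 as well at the 2-fold stage and on the average over stages. At the 190-cell stage it had 122.2 and 178.6 CPM in null, against 215.2 and 318.6 CPM in N2 embryos. The bean stage gave 295.2 and 281.9 CPM in null, against 66.16 and 87.67 CPM in N2 embryos. In 2-fold embryos zip-2 had 439.0 and 393.7 CPM in null, against 154.5 and 131.1 CPM in N2. The null libraries were thus below N2 at the 190-cell stage and above N2 at both later stages, with no overlap. The order at the 190-cell stage depends on scaling, since the shallow null library, with 3 zip-2 reads, had 270.7 CPM without the TMM factor and then lay between the N2 libraries at 247.5 and 312.1 CPM.

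Averaged over the stages, zip-2 rose by 0.91 on the log2 scale in null embryos (SE 0.26, adjusted p 0.03998 by the edgeR test), where 4.52% of the tested genes were called, 0.929% higher and 3.59% lower. With each library left out that share ran from 1.04% (without null 190-cell replicate 2) to 7.45% (without null bean replicate 1). It was 1.91 higher at the bean stage (SE 0.45, unadjusted p 0.000237, adjusted p 0.1144) and 1.54 higher at the 2-fold stage (SE 0.45, unadjusted p 0.001768, adjusted p 0.06549). The 190-cell difference was −0.71 (SE 0.48, adjusted p 0.8933), and the test of a change of the difference between stages gave an adjusted p of 0.1208 and passed in 2 of 19 alternatives. Under the 20 alternatives zip-2 passed the threshold in 11 at the bean stage, with log2 fold changes from 1.76 to 2.12, and in 15 at the 2-fold stage, with log2 fold changes from 1.29 to 1.69.

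The call on the average was close to the threshold. It was kept in 13 of 20 alternatives, and adjusted p ranged from 0.0004214 to 0.3001. With 1 library left out it was lost in 6 of 12 cases: adjusted p was 0.06883 without N2 190-cell replicate 1, 0.05505 without N2 bean replicate 1, 0.07281 without N2 2-fold replicate 1, 0.1033 without N2 2-fold replicate 2, 0.3001 without null 190-cell replicate 2 and 0.0666 without null 2-fold replicate 2. The log2 difference stayed between 0.86 and 1.06 in those 12 fits. Without the 190-cell libraries it was 1.73 with an adjusted p of 0.0004214.

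**Figure D2:**
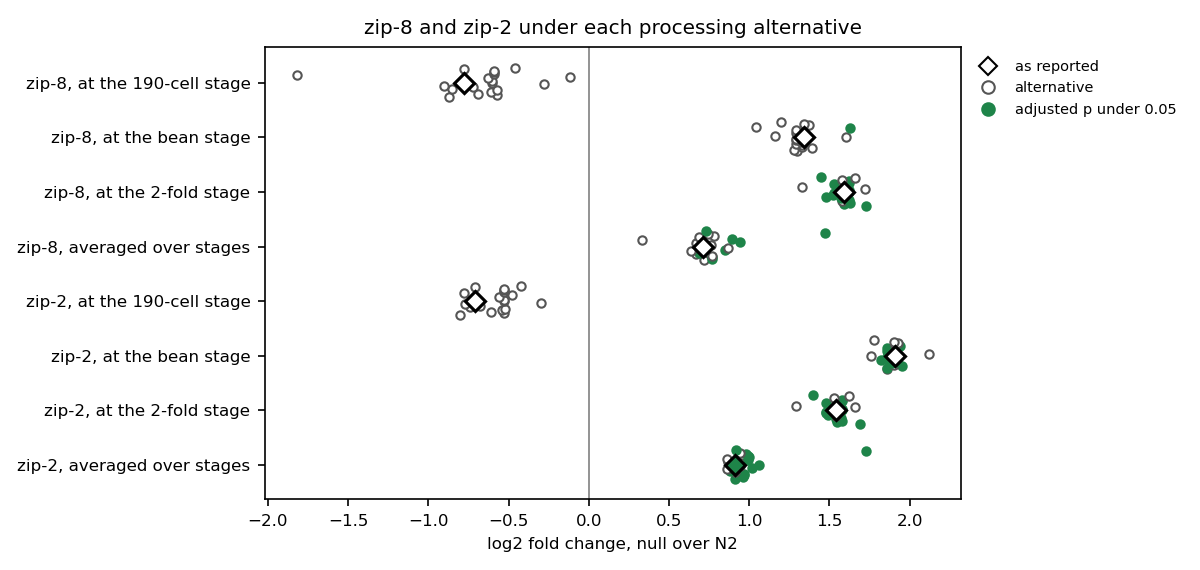
Log2 fold change of zip-8 and zip-2, null over N2 (horizontal axis), at each stage and averaged over stages, as reported (diamonds) and under each alternative (circles), filled green where the adjusted p was under 0.05. All bean and 2-fold estimates lie right of 0, between 1.04 and 2.12, and all 190-cell estimates lie left of it with none under the threshold.

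Taking the 10 genes at once, zip-2 and zip-8 were the 2 whose null libraries lay above both N2 libraries at the bean and the 2-fold stage, a pattern that 6.39% of the tested genes showed. Null and N2 libraries had separate ranges for 4 of the 10 genes in 190-cell embryos, 3 in bean embryos and 6 in 2-fold embryos, where 27.7%, 33.8% and 42% of all tested genes did not overlap. These shares are near the background. With the libraries scaled to their totals alone the 190-cell count was 1. Taken stage by stage (190-cell, bean, 2-fold), the edgeR test called 0 of the 10, while 0.216%, 0.0663% and 2.16% of the tested genes were called. With each library left out these shares ran from 0% to 1.37%, from 0.00852% to 1.45% and from 1.32% to 4.01%. At an unadjusted p under 0.05 the counts were 0, 2 and 2, and DESeq2 called 0, 1 and 2.

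The median log2 difference of the members with reads in both genotypes was −0.71 at the 190-cell stage (5 genes), 1.09 at the bean stage (6 genes) and 0.80 at the 2-fold stage (8 genes). Over all tested genes with reads in both it was −0.28, 0.05 and −0.07. The estimates of zip-1, zip-3, zip-5, zip-7 and zip-10 had standard errors above 1 log2 unit, as did that of zip-4 at the 190-cell stage (1.09).

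**Figure D3:**
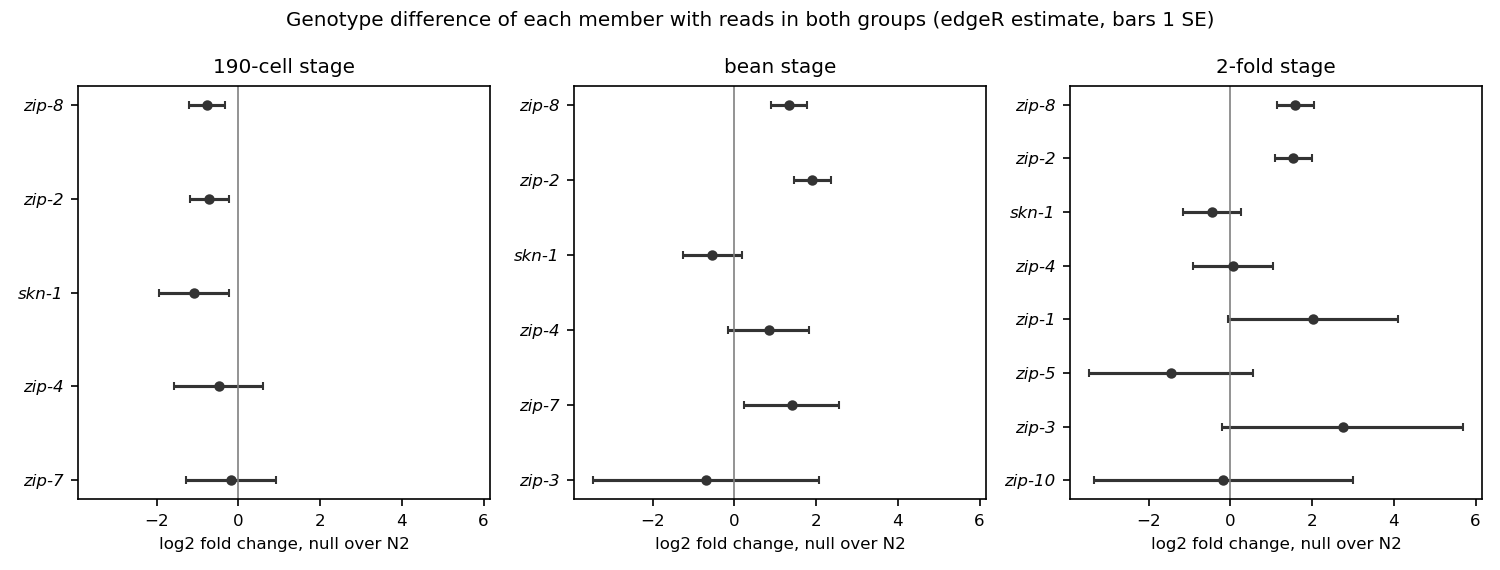
Log2 fold change of null over N2 (horizontal axis) for each member with reads in both genotypes, in a panel per stage, with bars of 1 SE from the edgeR fit. zip-8 and zip-2 lie at 1.34 and 1.91 at the bean stage and at 1.59 and 1.54 at the 2-fold stage, and skn-1 lies at or below −0.45 at every stage.

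Markers that moved with genotype were compared with these levels. In null libraries at the 2-fold stage the vitellogenin sum was 0 and 6.171 CPM, and none of the 6 genes had a read in replicate 1. The N2 libraries at that stage differed in summed vitellogenin, at 1053 and 3327 CPM. In the same libraries zip-8 was 72.54 and 60.69 CPM and zip-2 was 154.5 and 131.1 CPM. The N2 190-cell pair had 4278 and 548.3 CPM, with zip-8 at 1521 and 2504 CPM and zip-2 at 215.2 and 318.6 CPM. The N2 declines from the 190-cell stage start from this pair. In N2 bean libraries the sums were 256.7 and 185.3 CPM, with zip-8 at 136.0 and 103.1 CPM and zip-2 at 66.16 and 87.67 CPM. The part of this adult RNA, and of the early-embryo genes, in the genotype differences of zip-8 and zip-2 was not tested. Since whole embryos were measured, more cells that express a gene and more mRNA in each cell cannot be told apart.

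The make-up of the reads of the 10 genes differed between stages in both genotypes. zip-8 supplied 61.1% and 81.6% of the reads of the 10 genes in null and 78.5% and 80.0% in N2 libraries at the 190-cell stage. By the 2-fold stage its share was 24.8% and 26.9% in null and 19.3% and 15.2% in N2 libraries. zip-2 then supplied 51.5% and 55.4% in null and 41.0% and 32.8% in N2 libraries. The ratio of zip-8 to zip-2 reads at the 2-fold stage was 0.481 and 0.486 in null and 0.470 and 0.463 in N2 embryos, and these 4 values lie close together. At the 190-cell stage that ratio was 3.67 and 9.67 in null and 7.07 and 7.86 in N2 embryos. Summed over the 10 genes, the level was 733.5 and 2115 CPM in null and 1937 and 3131 CPM in N2 embryos at the 190-cell stage, where the ranges overlapped. It was 650 and 725.5 CPM in null and 266.5 and 294.4 CPM in N2 embryos at the bean stage, and 852.9 and 711.1 CPM in null and 376.5 and 399.3 CPM in N2 embryos at the 2-fold stage.

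**Figure D4:**
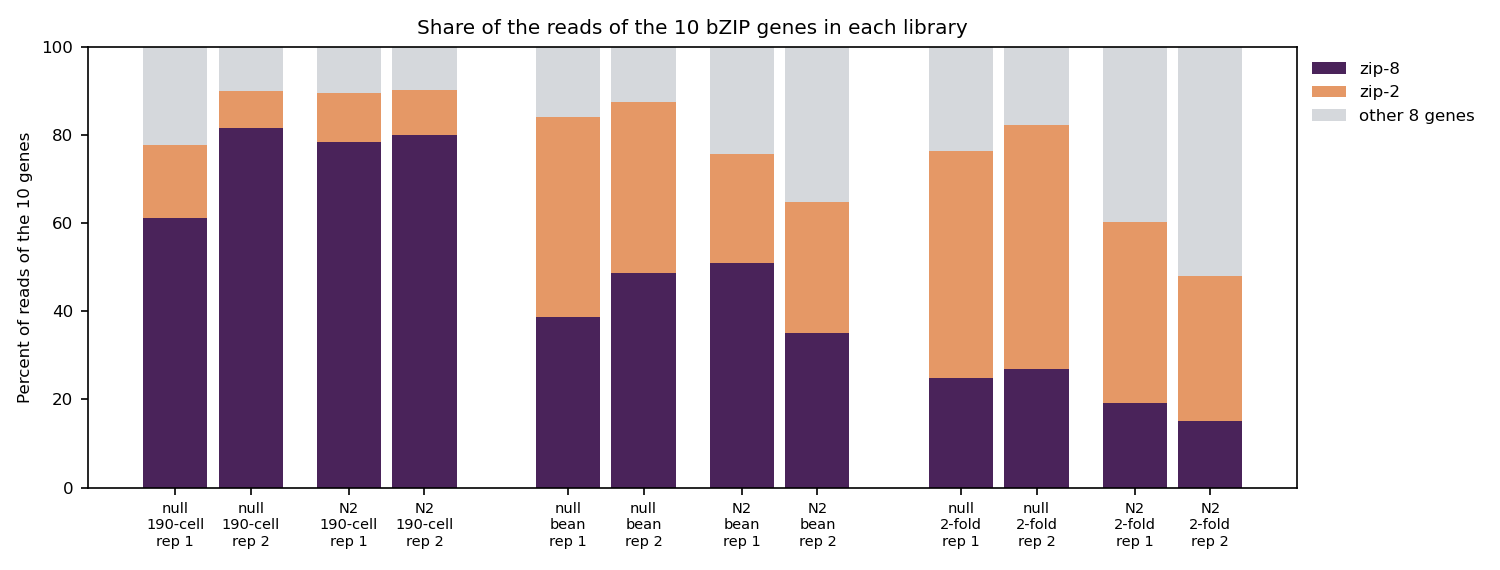
Percent of the reads of the 10 bZIP genes (vertical axis) that came from zip-8, zip-2 and the other 8 genes in each library, with the null libraries left of the N2 libraries at each stage. zip-8 supplies 61.1% to 81.6% at the 190-cell stage and 15.2% to 26.9% at the 2-fold stage.

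skn-1 is marked as a predicted target of the miR-51 family in the study's target list, and its level was lower in null than in N2 means at all stages without passing the test. At the 190-cell stage it had 40.75 and 28.65 CPM in null, against 66.31 and 64.43 CPM in N2 embryos, and the first of these values is 1 read. The bean stage gave 45.41 and 21.01 CPM in null, against 42.88 and 53.30 CPM in N2 embryos. In 2-fold embryos skn-1 had 62.07 and 52.05 CPM in null, against 74.68 and 81.32 CPM in N2. The groups overlapped at the bean stage. The log2 differences were −1.09 (SE 0.86), −0.54 (SE 0.72) and −0.45 (SE 0.72), and their average was −0.69 (SE 0.44) with an adjusted p of 0.5191 by the edgeR test. Under the 20 alternatives the average lay between −0.83 and −0.48, and none passed. From the bean to the 2-fold stage the skn-1 difference was 0.79 in null (SE 0.72, adjusted p 0.5457) and 0.70 in N2 embryos (SE 0.72, adjusted p 0.6966).

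Few of the listed genes that SKN-1 is known to act on passed the read filter, and none was called. Expression before the 190-cell stage, the earliest sampled, was not measured. Of 5 listed endomesoderm targets only end-1, a GATA factor of the endoderm lineage, reached the filter of 20 reads. It had 0 and 20.8 CPM in null and 38.7 and 37.0 CPM in N2 embryos at the 190-cell stage. Of 4 listed detoxification genes 2 were tested. gcs-1, which encodes an enzyme of glutathione synthesis, had 30.2 to 66.3 CPM in null and 27.0 to 54.3 CPM in N2 libraries. gst-10 had a mean of 8.63 CPM in null against 40.3 CPM in N2 embryos at the bean stage, without overlap. Its log2 difference there was −2.26 (SE 1.16, adjusted p 0.7301 by the edgeR test). At the 2-fold stage its means were 54.4 CPM in null and 78.8 CPM in N2, and at the 190-cell stage 3.37 and 0 CPM. Neither of the 2 tested genes was called by the edgeR test or DESeq2 in any comparison, with 1 at an unadjusted p under 0.05 in some comparison. Of 5 listed regulators, pie-1, a maternal germline repressor that restricts SKN-1 activity, fell by 3.45 on the log2 scale in null embryos on average (SE 0.97, adjusted p 0.0442). pie-1 is itself a maternal RNA and moved with the early-embryo genes above. Its call was lost without null 190-cell replicate 1 (adjusted p 0.1216), null 190-cell replicate 2 (0.5456), N2 190-cell replicate 1 (0.09167), N2 bean replicate 1 (0.07837), N2 bean replicate 2 (0.1326) or null 2-fold replicate 1 (0.05483), and also without all 190-cell libraries (0.3511), with filterByExpr (0.06549) and with library totals in place of TMM (0.06065). pmk-1, the p38 kinase that activates SKN-1, was 1.06 higher (SE 0.34) but did not pass, at an adjusted p of 0.07683.

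zip-7 was, with zip-8, a gene of the early stage. At the 190-cell stage it had 81.50 and 142.1 CPM in null, against 67.75 and 205.2 CPM in N2 embryos. The bean stage gave 2.112 and 12.52 CPM in null, against 0 and 5.479 CPM in N2 embryos, and no library had a read at the 2-fold stage. Against a floor of 3 estimated molecules per group, zip-7 was at least 9.01-fold lower at the 2-fold than at the 190-cell stage in null embryos and at least 18.2-fold lower in N2 embryos. The genotypes overlapped at the 190-cell and bean stages, and no difference passed the test.

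zip-1, which drives the response to intracellular pathogens, and zip-5 were seen mostly at the 2-fold stage. zip-1 had 58.50 and 27.10 CPM in null, against 6.744 and 14.56 CPM in N2 embryos at that stage. For zip-1 that is 6.46 and 3.56 estimated molecules in null and 1.19 and 3.26 in N2 libraries. Earlier it had 0 reads in all null libraries and 0 to 3.487 CPM in N2 libraries. At the 2-fold stage the genotypes did not overlap, but the difference of 2.02 had an SE of 2.07 and an adjusted p of 0.853. zip-5 had the opposite order, with 20.09 and 14.22 CPM in null, against 36.19 and 58.26 CPM in N2 embryos, and a difference of −1.46 (SE 2.01, adjusted p 0.963). zip-5 was not seen in N2 embryos before the 2-fold stage, and in null embryos it had a single read in the shallow library, 40.75 CPM, and 3.696 and 0 CPM at the bean stage.

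The comparison of the bean with the 2-fold stage asks which genes change as the embryo elongates. In null embryos the edgeR test called 2 of the 10 members, where 8.91% of the tested genes were called, 4.48% higher and 4.44% lower. zip-1 was called higher at the 2-fold stage (adjusted p 0.04268), at least 4.56-fold above a bean-stage floor of 9.39 CPM. Its call was lost without null bean replicate 1 (adjusted p 0.08383), null bean replicate 2 (0.142), null 2-fold replicate 1 (0.1341), null 2-fold replicate 2 (0.08033), null 190-cell replicate 1 (0.05171) or N2 2-fold replicate 1 (0.05912), and with library totals in place of TMM scaling (0.05695). On molecule-scaled counts zip-1 did not enter the test. zip-7 was called lower (adjusted p 0.009839), but its bean-stage mean of 7.32 CPM is under the 2-fold floor of 12.4 CPM, so that a decline was not detectable at this depth. That call was lost without null bean replicate 2 (adjusted p 0.07007) or null 2-fold replicate 2 (0.1333), and on molecule-scaled counts (0.3677).

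In N2 embryos 0 of the 10 members were called from the bean to the 2-fold stage by the edgeR test, where 4.35% of the tested genes were called, with 2 at an unadjusted p under 0.05 and 2 called by DESeq2. zip-5 came nearest among those absent at the bean stage, at least 5.56-fold higher at the 2-fold stage with an adjusted p of 0.08719. The zip-2 difference between these stages was 0.53 in null embryos (SE 0.44, adjusted p 0.4824) and 0.89 in N2 embryos (SE 0.44, adjusted p 0.3413), and neither passed. For zip-2 the N2 level was thus lowest at the bean stage, while in null embryos the mean was 1.92-fold higher at the bean than at the 190-cell stage and in N2 embryos it was 3.47-fold lower. The null change depends on scaling: with library totals in place of TMM it was 1.1-fold, and the null libraries of the 190-cell and bean stages overlapped.

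zip-4 was low at all stages. It had 0 and 30.89 CPM in null, against 37.89 and 31.02 CPM in N2 embryos at the 190-cell stage. The bean stage gave 51.22 and 38.23 CPM in null, against 21.44 and 28.39 CPM in N2 embryos. In 2-fold embryos the values were 42.87 and 25.62 CPM in null, against 24.84 and 41.27 CPM in N2. The genotypes were apart at the bean stage, at a log2 difference of 0.84, and overlapped at the 2-fold stage, and the average difference was 0.14 (SE 0.59, adjusted p 0.9999).

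zip-3, zip-10 and zip-11 were near the limit of detection. zip-3 had at most 19.20 CPM in null and 13.38 CPM in N2 libraries. For zip-10 the highest values were 7.864 CPM in null and 4.441 CPM in N2 libraries, and for zip-11 they were 6.260 CPM in null and 16.06 CPM in N2 libraries. Reads of each came from 5 to 7 of the 12 libraries. These levels stand for about 3 molecules or fewer in a library, so that differences between groups were not detectable at this depth. All 10 members passed the filter of 20 reads summed over the libraries, but reads are copies of molecules, and the filter does not show that a gene was sampled well.

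The order of the levels was compared within a stage, since a 3′ read marks a transcript once whatever its length. In N2 embryos at the 190-cell stage mean levels ran from zip-8 at 2010 ± 695 CPM through zip-2 at 267 ± 73.1 CPM (SD, n = 2) to zip-7 at 136 CPM, with the higher zip-7 library at 205.2 CPM just under the lower zip-2 library at 215.2 CPM. In null embryos at the 2-fold stage zip-2 led at 416 ± 32.0 CPM, ahead of zip-8 at 201 ± 14.2 CPM (SD, n = 2). In N2 embryos at the 2-fold stage zip-2 at 143 ± 16.5 CPM was followed by skn-1, at 74.68 and 81.32 CPM, and zip-8 at 66.6 ± 8.38 CPM (SD, n = 2), with no overlap between skn-1 and zip-8.

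The wider family is given beside the 10 genes. Of 20 other bZIP genes listed, 17 were tested. ces-2, which controls the death of a neuronal sister cell, was a bean-stage gene: it had 1986 and 2427 CPM in null, against 1384 and 1150 CPM in N2 embryos at that stage, and under 20 CPM in each library of the others. From the bean to the 2-fold stage it fell by 7.14 on the log2 scale in null (SE 0.52, adjusted p 6.585e-10) and by 7.84 in N2 embryos (SE 0.56, adjusted p 4.041e-10). On average over stages ces-2 was called 2.14 higher in null embryos (SE 0.40, adjusted p 0.001694), and the call was kept in 18 of 20 alternatives. That average includes a 190-cell difference of 4.11 (SE 1.02, adjusted p 0.08229), from 6 reads in null and 1 read in N2 embryos. The means there, 1.69 and 0.103 CPM, lie under the floors of 21.4 and 8.07 CPM. At the bean stage, where ces-2 was abundant, the difference was 0.80 (SE 0.40, adjusted p 0.7055 by the edgeR test). Over the bean and 2-fold stages alone it was 1.18 with an adjusted p of 0.01092. The call was lost without null 190-cell replicate 2, where it was 0.01 with an adjusted p of 0.9999, and on molecule-scaled counts, where it was 0.6 with an adjusted p of 0.9999.

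Other bZIP genes changed from the bean to the 2-fold stage. atf-2 rose by 3.09 in null embryos (SE 0.52, adjusted p 0.0002204) and by 1.81 in N2 embryos (SE 0.50, adjusted p 0.03139), and the N2 call was lost without N2 bean replicate 1 (0.06591), N2 bean replicate 2 (0.1568), N2 2-fold replicate 1 (0.2626) or null 2-fold replicate 2 (0.0633), and with TMMwsp scaling (0.07947). fos-1, the nematode Fos gene, was called higher at the 2-fold stage in N2, with 92.0 and 59.5 CPM at the 2-fold against 0 and 4.5 CPM at the bean stage, a call lost without N2 bean replicate 1 (adjusted p 0.1609) or N2 2-fold replicate 1 (0.2213), with TMMwsp scaling (0.05246) and with library totals (0.05594). zip-12, which neighbours zip-1 on the same strand, was called 3.25 lower at the 2-fold stage in null embryos, with 5.36 and 15.96 CPM at the 2-fold against 87.7 and 118.9 CPM at the bean stage. Leaving out either null bean library ended that call, with an adjusted p of 0.05803 (replicate 1) and 0.1846 (replicate 2), as did leaving out null 2-fold replicate 1 (0.18). The median genotype difference of this list was 0.80 at the bean stage and 0.40 at the 2-fold stage, and the test of a change between stages called 0 of its 17 tested genes by edgeR and 0 by DESeq2, with 1 at an unadjusted p under 0.05.

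**Figure D5:**
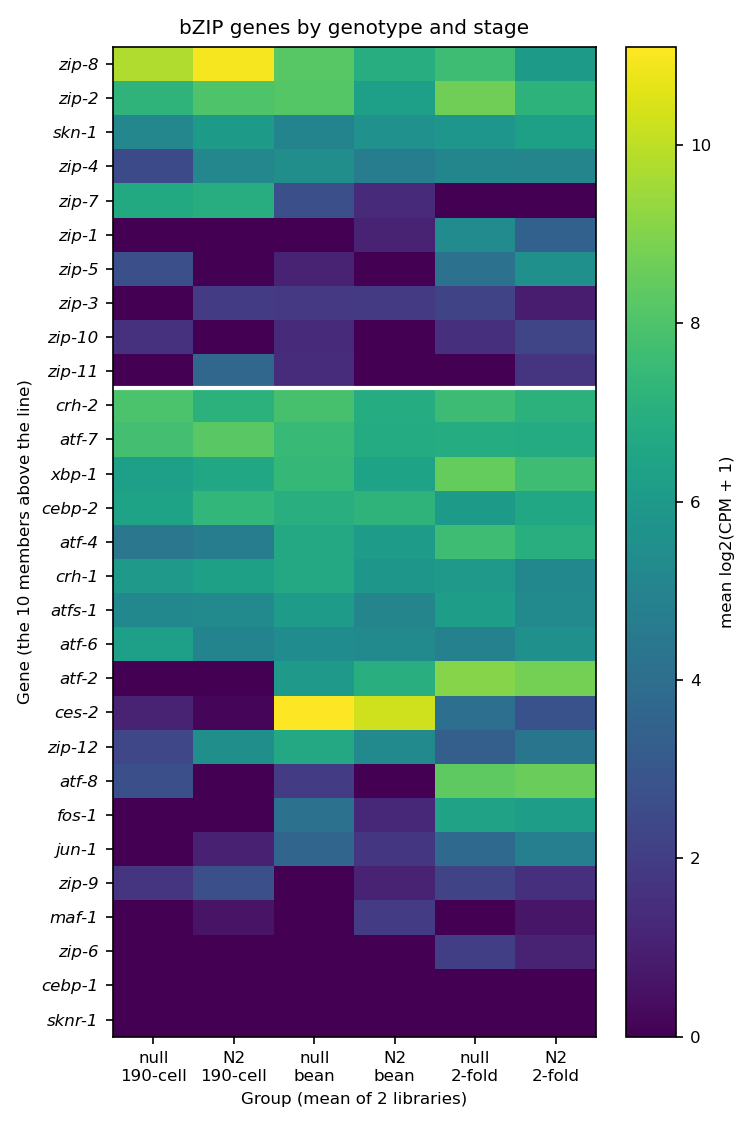
Mean log2(CPM + 1) of 2 libraries (colour) for the 10 members above the line and 19 other bZIP genes below it, ordered by mean level, in the 6 groups (horizontal axis, null left of N2 at each stage). zip-8 has its highest value at the 190-cell stage, ces-2 at the bean stage and atf-2 and atf-8 at the 2-fold stage.

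Of 8 listed regulators and target genes of the ZIP factors, 5 passed the filter. irg-1, a defence gene that zip-2 activates in infected adults, had 0 reads in every library, and pals-5, a target of zip-1, had 0 to 3.6 CPM in null and 0 to 3.8 CPM in N2 libraries. cebp-2, a partner of zip-2 counted above among the other bZIP genes, was −0.60 on the log2 scale on average in null embryos (SE 0.32, adjusted p 0.3603). isy-1, a repressor of zip-10, was −1.13 on average (SE 0.37, adjusted p 0.07829). hsp-6, a mitochondrial chaperone of the ATFS-1 programme that zip-3 restrains, had 622.5 and 606.4 CPM in null, against 265.2 and 227.0 CPM in N2 embryos at the 2-fold stage, with an adjusted p of 0.148. hsp-60, also on this list, had means of 72.4 CPM in null and 67.9 CPM in N2 embryos at that stage. At the 190-cell stage the null and N2 means were 102 and 130 CPM for hsp-6 and 10.4 and 52.9 CPM for hsp-60. At the bean stage they were 507 and 231 CPM for hsp-6 and 82.7 and 49.1 CPM for hsp-60. Of the 5 tested genes of this list, 0 were called by the edgeR test and 0 by DESeq2 in any comparison, while 3 had an unadjusted p under 0.05 in at least 1 of them.

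The genes whose level most followed zip-8 over the 11 deeper libraries were sought among 6169 genes, by Pearson's r of log2(CPM + 1). They were atf-7 (r = 0.956), F31E8.4 (0.946), skr-12 (0.943), btb-11 (0.942) and fbxc-25 (0.935). The points share their libraries and depth, and the values are a description. atf-7, itself a bZIP factor of the p38 pathway, had 163.0 and 290.4 CPM in null, against 292.4 and 323.9 CPM in N2 embryos at the 190-cell stage. At the 2-fold stage it had 121.5 and 113.4 CPM in null, against 122.5 and 104.4 CPM in N2 embryos. It thus lacked the gap between genotypes that zip-8 had there. In bean embryos atf-7 did have such a gap, with 188 and 164 CPM in null, against 118 and 109 CPM in N2. F31E8.4 was higher in null bean embryos, with 121 and 123 CPM against 91.3 and 70.7 CPM in N2. Its 2-fold values were 134 and 164 CPM in null, against 86.5 and 46.1 CPM in N2. Bean libraries of skr-12, btb-11 and fbxc-25 had 1.56 to 25.5 CPM in null and 0 to 0.498 CPM in N2. None of these had more than 0.447 CPM in a 2-fold library. By Spearman's rho 0 of these 5 were among the 5 highest.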

How the data were processed

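Each library held mRNA of 50 whole embryos, prepared with the Lexogen QuantSeq 3′ kit. The authors trimmed adaptors and the first 4 bases, aligned reads to WBcel235 with STAR and deposited whole-number counts per gene from HTSeq, not normalized. Tool versions, annotation release and strand setting were not given in the sources used here. The study's methods describe removal of duplicates by molecular tags. Yet the estimate above gave several reads per molecule in the deeper libraries, so the counts were treated as reads. They were also scaled to estimated molecules as an alternative.

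Gene IDs were matched to symbols in the WBcel235 annotation; 19643 of 20362 IDs had one, and of the other bZIP genes listed atf-5 was not matched. The 5 summary lines of each file were left out, and no column of another series was found. Genes with at least 20 reads over the 12 libraries (12062) entered 1 fit of 6 groups in edgeR 4.0.16 (R 4.3.3) with TMM scaling and the robust quasi-likelihood test, two-sided, with Benjamini-Hochberg adjustment over all tested genes and a threshold of 0.05. The script was tested on simulated counts. A group with no reads was compared against a floor of 3 estimated molecules over its 2 libraries, which covers counting error only. CPM were computed on TMM-scaled library sizes. Named were all 10 members, every called gene of the other lists with up to 4 further genes of each, and the 5 genes most like zip-8 among those of at least 20 CPM. Alternatives were other scaling (TMMwsp, DESeq2 1.42.0, library totals), other filters, a stage alone, molecule-scaled counts, the replicate number as a block and each library left out. The members and lists were chosen with earlier results of these data known.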

Additional observations from a re-analysis of the deposited data

How the results depend on the processing

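The 190-cell comparison called 0 of the 10 members under every alternative run. At the bean stage 1 member, zip-2, was called with DESeq2, with no filter, with the libraries of the stage alone, on molecule-scaled counts and with the replicate block. At the 2-fold stage 2, zip-2 and zip-8, were called with TMMwsp scaling, DESeq2, no filter, the stage alone, molecule-scaled counts and library totals, and 1 with the stricter filter of filterByExpr and with the replicate block. On the average over stages 2 were called with DESeq2, no filter, molecule-scaled counts, library totals and without the 190-cell libraries, against 0 with the replicate block, where zip-2 had an adjusted p of 0.05044. From bean to 2-fold in N2, 2 were called with DESeq2 and no filter, and 1 with the replicate block and on molecule-scaled counts. In null embryos 0 were called on molecule-scaled counts and 1 with library totals. The change of the genotype difference between stages gave 1 call with DESeq2, the replicate block and molecule-scaled counts, and 2 with no filter. These calls draw on changes from the 190-cell stage, which were part of the choice. Library totals and the average without 190-cell libraries were added after seeing the data. With each library left out the counts ranged from 0 to 2 at the bean stage, 0 to 2 at the 2-fold stage, 0 to 2 on average, 0 to 2 from bean to 2-fold in N2 and 0 to 2 in null, and 0 to 1 for the change between stages. Same-numbered null and N2 libraries of a stage did not deviate together over all tested genes (correlations 0.0909, −0.034 and 0.0279). That check includes genes with few reads and the shallow library and compares no stages, so it cannot exclude pairing. With the replicate block, 166, 133 and 522 genes were called at the 190-cell, bean and 2-fold stages, against 26, 8 and 260 as reported. Some low members changed sign, none with a call. zip-7 at the 190-cell stage, −0.18 as reported, was 0.06 with DESeq2, 0.02 with filterByExpr, 0.11 with the stage alone and 0.21 with library totals. zip-4 at the 2-fold stage, 0.06 as reported, was 0 on molecule-scaled counts and −0.1 with library totals, and from bean to 2-fold in null it was 0.04 with DESeq2, against −0.39. zip-3 from bean to 2-fold in null, 1.25 as reported, was −1.22 with the replicate block. With each library left out, the difference at the 190-cell stage ranged from −0.57 to 0.92 for zip-7. At the bean stage it ranged from −3.51 to 0.27 for zip-3 and from −0.43 to 2.21 for zip-7. At the 2-fold stage it ranged from −3.05 to 3.72 for zip-3, from −0.28 to 0.39 for zip-4 and from −0.41 to 0.87 for zip-10. From bean to 2-fold in null it ranged from −4.36 to 4.28 for zip-3 and from −0.39 to 1.55 for zip-10. The cause was not tested. Of the 5 genes most like zip-8, 3 remained with a pseudocount of 5, 2 with the shallow library and 0 by Spearman's rho. Over all tested genes, the edgeR calls of the report (26, 8, 260 and 545 for the 190-cell, bean, 2-fold and averaged comparisons, 525 in N2 and 1075 in null from bean to 2-fold, and 56 for the change between stages) ranged over the other settings from 10 to 218, 5 to 136, 236 to 523, 513 to 911, 499 to 1264, 1054 to 1545 and 14 to 269. With each library left out they ranged from 0 to 164, 1 to 173, 155 to 479, 125 to 890, 233 to 917, 708 to 1480 and 13 to 199. The lowest counts came without null 190-cell replicate 2 (190-cell and average), N2 2-fold replicate 1 (bean to 2-fold in N2) or null 2-fold replicate 2 (the others). The all-gene median log2 difference of the averaged comparison was −0.31 under TMM and −0.01 with DESeq2. Depth limits zip-3, zip-10 and zip-11, each at no more than 3.09 estimated molecules in a library.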
